A study of Mus musculus with 9 samples.

Results

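Ribosome biogenesis genes encode the factors that make, modify and assemble ribosomes without being part of the finished particle. A set of 37 such genes was taken from the array values by gene symbol. A probe set, the group of array probes read as 1 value, was used where the platform annotation named one of these genes and no other. With this rule 36 of the 37 genes were measured, by 74 probe sets, among 18193 genes measured alone by 34945 probe sets. Mrto4, a large subunit assembly factor, was read only by a probe set that named 3 genes, and it has no value here. The rule uses no measured value, but the genes and the rule were chosen with earlier results of these data known.

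Production of ribosomes starts in the nucleolus, where RNA polymerase I transcribes the ribosomal RNA precursor. Small nucleolar ribonucleoproteins (snoRNPs) of the box C/D kind guide methylation of this RNA and those of the box H/ACA kind guide its pseudouridylation, while large sets of assembly factors, helicases and chaperones fold, cut and export the small and the large subunit. Cells that grow and divide are known to need many new ribosomes, whereas the endothelium of a healthy adult lung divides little. Myc is a well-known activator of this program and binds, with its partner Max, the DNA letters CACGTG (the E-box).

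Lungs of immunodeficient NSG mice gave the ECs (endothelial cells), which were sorted as cells with CD31 and without GFP, CD140b, CD140a, CD326 (EpCAM), CD11b or CD45, and their RNA was read on Affymetrix mouse genome arrays. A group of 3 arrays came from healthy lungs of mice given control IgG, without cancer cells. The other two groups, also of 3 arrays each, came from metastatic lungs of mice injected through the tail vein, at 6 to 8 weeks of age, with MDA231-LM2 cells, a human breast cancer line selected for growth in the lung, and harvested 3 weeks later, on day 21. These mice received either control IgG or B20.4.1.1 (B20), an antibody against VEGFA, at 10 mg per kg. The study describes age-matched healthy mice, 3 mice per group, and metastatic mice selected for a comparable load by bioluminescence. The human cells grew in a host that lacks most lymphocytes. A sorted population is a bulk sample, in which fewer cells of a type and less RNA per cell cannot be told apart.

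The E-box letters were looked for around the starts of the genes, since several of the genes described below differed in the same direction between healthy and metastatic lungs. The windows ran from 250 bases before to 50 bases after a start listed in a promoter table of RefSeq for mouse build GRCm38.p6. Of the 37 genes 32 had one or more, 35 windows in all. The start that RefSeq's gene table gives lay within 100 bases of the listed start in 29 of these windows and farther off in the others. CACGTG reads the same on both strands. It was present in 8 of these 32 genes (25.0%), against 8.09% of 27025 genes with a window and 6 of 58 genes of cytosolic ribosomal proteins (10.3%). The sites are printed 5′ to 3′ on the strand of the gene with up to 12 bases on either side, CACGTG in capitals:

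Grwd1, chr7:45830740-45830767 (-): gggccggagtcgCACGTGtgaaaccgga
Ltv1, chr10:13193092-13193121 (-): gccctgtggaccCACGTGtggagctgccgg
Mybbp1a, chr11:72441355-72441376 (+): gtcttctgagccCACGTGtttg
Nle1, chr11:82908355-82908384 (-): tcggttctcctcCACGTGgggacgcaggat
Nop2, chr6:125131811-125131840 (+): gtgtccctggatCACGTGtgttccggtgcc
Pes1, chr11:3963965-3963994 (+): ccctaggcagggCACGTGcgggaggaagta
Tsr1, chr11:74898092-74898121 (+): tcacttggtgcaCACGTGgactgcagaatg
Wdr43, chr17:71616220-71616249 (+): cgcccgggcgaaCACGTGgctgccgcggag

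In 7 of these genes the letters lay downstream of the start that the window was drawn around, and in Nop2 they lay 60 bases upstream of it. A match describes these letters only. It was present neither in a window of Wdr12 nor in that of Nop14, the 2 genes that passed a test below. The log2 differences between metastatic IgG and healthy arrays ranged from −0.19 in Mybbp1a to 0.28 in Wdr43 over the 8 genes with the letters (median 0.14), and from −0.30 to 0.49 over 23 measured genes with a window and without them (median 0.15).

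The values below are log2 signals from the authors' RMA normalization, so a difference of 1 is a doubling, and the signal of one gene cannot be set against that of another. Each gene is given by its probe set with the highest mean. Differences carry their standard error (SE, 3 arrays per group), and a gene is said to have risen or fallen where limma's adjusted p, over all 18193 genes of that comparison, was under 0.05. Arrays of a group correlated at 0.988 to 0.9915 and arrays of different groups at 0.976 to 0.9903. Endothelial markers were bright in all groups: Pecam1 (CD31) read 13.32 to 13.47 and Cdh5 12.95 to 13.07 over the 9 arrays, and the median difference of 10 such markers was −0.03 between metastatic IgG and healthy arrays, with 1 of them (Emcn) higher. Markers of other cells were not absent. Of 12 macrophage markers 10 rose in metastatic IgG arrays (median 0.87), as did 2 of 9 epithelial, 3 of 7 fibroblast and 2 of 7 pericyte and smooth muscle markers, while 1 fibroblast marker fell. Healthy replicate 1 stood apart by low epithelial (−0.89), fibroblast (−0.76) and pericyte and smooth muscle (−0.57) markers, each as the mean difference from the 9-array mean.

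**Figure D1:**
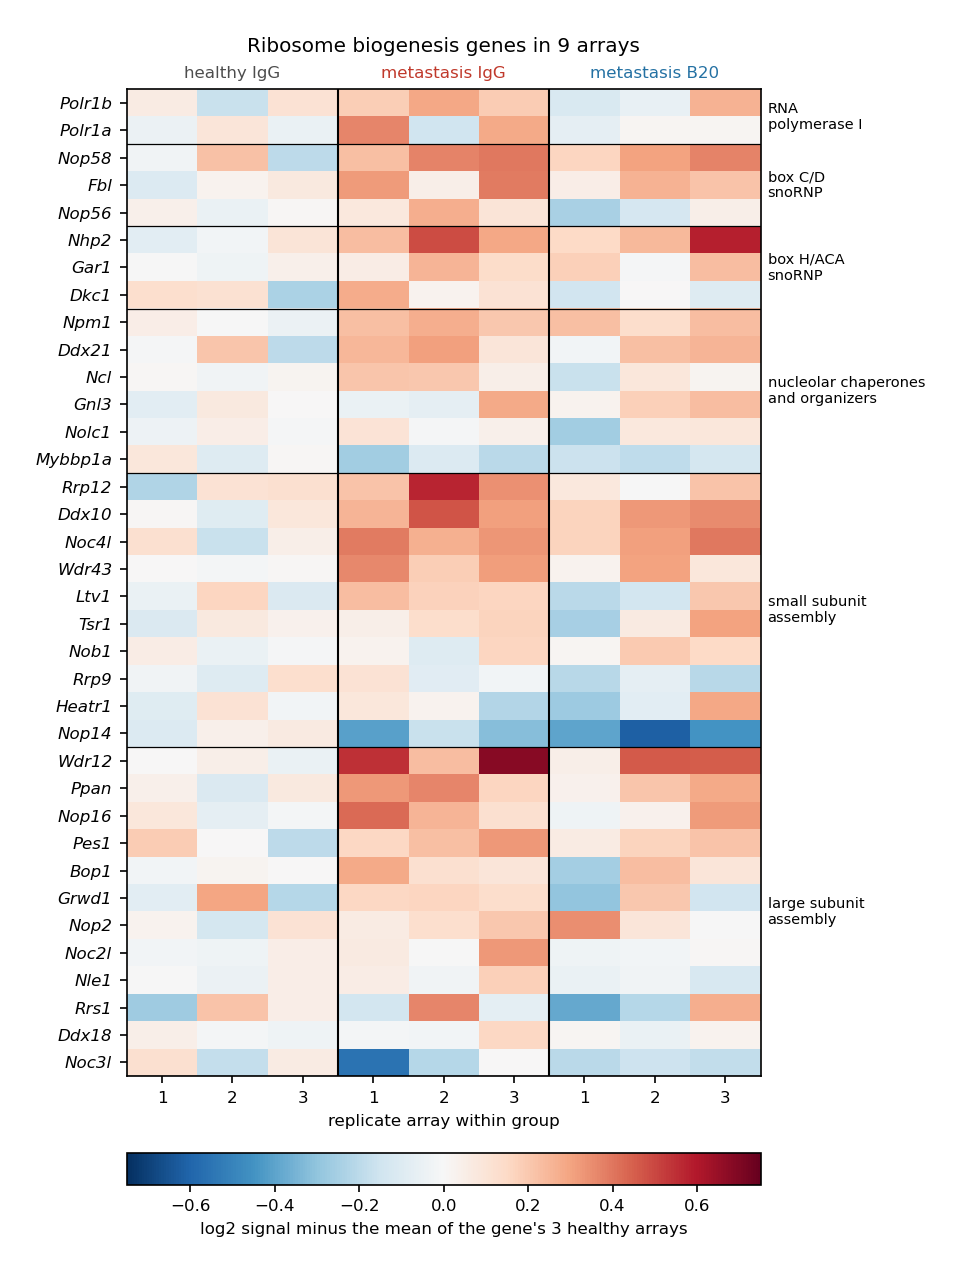
Log2 signal of the 36 measured ribosome biogenesis genes (rows, grouped by role) in the 9 arrays (columns, replicates 1 to 3 of each group), drawn as the difference from the mean of the gene's 3 healthy arrays. Most rows are red in the metastatic IgG columns, while Nop14 and Mybbp1a are blue there and Noc3l is blue in metastatic IgG replicates 1 and 2. The column of B20 replicate 1 is paler or bluer than those of B20 replicates 2 and 3.

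The first comparison asked which ribosome biogenesis genes differ in lung ECs once metastases have grown. Most of them read slightly higher in ECs of metastatic lungs, and 1 passed the test. Wdr12, a subunit of the complex with Pes1 and Bop1 that processes the RNA of the large subunit, rose 1.40-fold, and no gene fell. That is 1 of 36 genes, where 5.55% of all genes rose and 3.46% fell, 9.01% in either direction. The differences were small and mostly on one side: 32 of 36 were above 0, where 49.8% of all genes were, with a median of 0.15 against −0.00 over all genes tested, and a range of −0.30 to 0.49. Without healthy replicate 1 the median was 0.16. Every metastatic IgG array lay above every healthy array in 15 genes (41.7%; 15.4% of all genes) and below it in 2 genes (5.56%; 13.6% of all genes). At an unadjusted p under 0.05 there were 13 of 36 genes, against 23.3% of all genes. Of these 13 genes 12 were higher and 1 lower, where 2270 of all 18193 genes were higher and 1973 lower.

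Averaged over the 36 genes, each taken as its difference from its own mean over 9 arrays, the level was −0.07, −0.05 and −0.07 in healthy replicates 1 to 3 and 0.07, 0.08 and 0.10 in metastatic IgG replicates 1 to 3. The groups did not overlap, and the spread within a group was small beside the distance (mean −0.07, SD 0.0114, against mean 0.08, SD 0.0139, n = 3 each). Other measures moved with this level. The mean of 12 measured markers of dividing cells (such as Mki67, Top2a and the replication helicase genes) was −0.93 to −0.61 in healthy and 0.45 to 0.91 in metastatic IgG arrays, and 10 of the 12 rose (median 1.72). The mean of the 12 macrophage markers was −0.98 to −0.56 in healthy, 0.29 to 0.52 in metastatic IgG and 0.21 to 0.66 in B20 arrays. The signal of the 3′ probe set of beta-actin minus that of its 5′ probe set, a measure of RNA quality, was 0.609 to 0.62 in healthy and 0.488 to 0.555 in metastatic IgG arrays, and that of GAPDH 0.0969 to 0.176 and −0.0338 to 0.0995. The part of these differences in the levels of the ribosome biogenesis genes was not tested.

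RNA polymerase I is the enzyme that transcribes ribosomal RNA. Both of its subunits in the set read higher on average in metastatic IgG arrays without passing the test. Of other subunits measured outside the set, Polr1c (0.22), Cd3eap (0.10), Polr1e (0.09) and Twistnb (0.04) read higher. Polr1d (−0.07) and Znrd1 (−0.05) read lower. The probe sets of Polr1d and of Twistnb differed in sign. Polr1b, a core subunit, read 9.18, 8.95 and 9.23 in healthy, 9.30, 9.41 and 9.31 in metastatic IgG and 9.01, 9.06 and 9.38 in B20 arrays, each in the order of replicates 1 to 3. Its metastatic IgG arrays lay above all healthy arrays by 0.22 ± 0.09 on average (limma, adjusted p = 0.207), while B20 replicates 1 and 2 lay in the healthy range. Polr1a, the catalytic subunit, read 9.60, 9.73 and 9.59 in healthy, 10.01, 9.49 and 9.93 in metastatic IgG and 9.57, 9.65 and 9.66 in B20 arrays. Metastatic IgG replicate 2 was the lowest of all 9 arrays and the other two the highest, so that the groups overlapped (0.17 ± 0.14, adjusted p = 0.519).

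The set holds 3 core proteins of the box C/D snoRNPs. All 3 read higher in metastatic IgG arrays (median 0.25), and none passed the test. Nop58 read 10.87, 11.11 and 10.70 in healthy, 11.12, 11.27 and 11.29 in metastatic IgG and 11.06, 11.20 and 11.27 in B20 arrays. The lowest metastatic IgG array only just cleared the highest healthy array, and the mean difference was 0.33 ± 0.12 (adjusted p = 0.124). Fbl, fibrillarin, the methyltransferase of these particles, read 11.00, 11.13 and 11.17 in healthy, 11.42, 11.15 and 11.49 in metastatic IgG and 11.15, 11.36 and 11.31 in B20 arrays. One metastatic IgG array, replicate 2, lay within the healthy range (0.25 ± 0.11, adjusted p = 0.207). Nop56, which pairs with Nop58, read 10.75, 10.66 and 10.72 in healthy, 10.79, 10.98 and 10.80 in metastatic IgG and 10.47, 10.58 and 10.75 in B20 arrays. Its metastatic IgG arrays were above those of both other groups, and 2 B20 arrays were the lowest of the 9 (metastatic IgG over healthy 0.15 ± 0.08, adjusted p = 0.336).

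The 3 box H/ACA proteins of the set had a median of 0.15, again without a call. Nop10, a box H/ACA protein outside the set, read the other way, at −0.05 in its probe set with the highest mean and −0.15 in the other. Nhp2, an RNA-binding subunit, read 9.91, 9.98 and 10.09 in healthy, 10.23, 10.48 and 10.28 in metastatic IgG and 10.14, 10.24 and 10.58 in B20 arrays. Both metastatic groups lay above all healthy arrays and overlapped each other (metastatic IgG over healthy 0.34 ± 0.10, adjusted p = 0.0697). Gar1, another subunit, read 10.17, 10.13 and 10.20 in healthy, 10.22, 10.43 and 10.30 in metastatic IgG and 10.34, 10.16 and 10.40 in B20 arrays. The metastatic IgG arrays just cleared the healthy ones (0.15 ± 0.08, adjusted p = 0.332), and B20 replicate 2 lay among the healthy arrays. Dkc1, dyskerin, the pseudouridine synthase, read 10.19, 10.17 and 9.82 in healthy, 10.34, 10.09 and 10.17 in metastatic IgG and 9.92, 10.07 and 9.97 in B20 arrays. Healthy and metastatic IgG arrays overlapped (0.14 ± 0.12, adjusted p = 0.561).

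**Figure D2:**
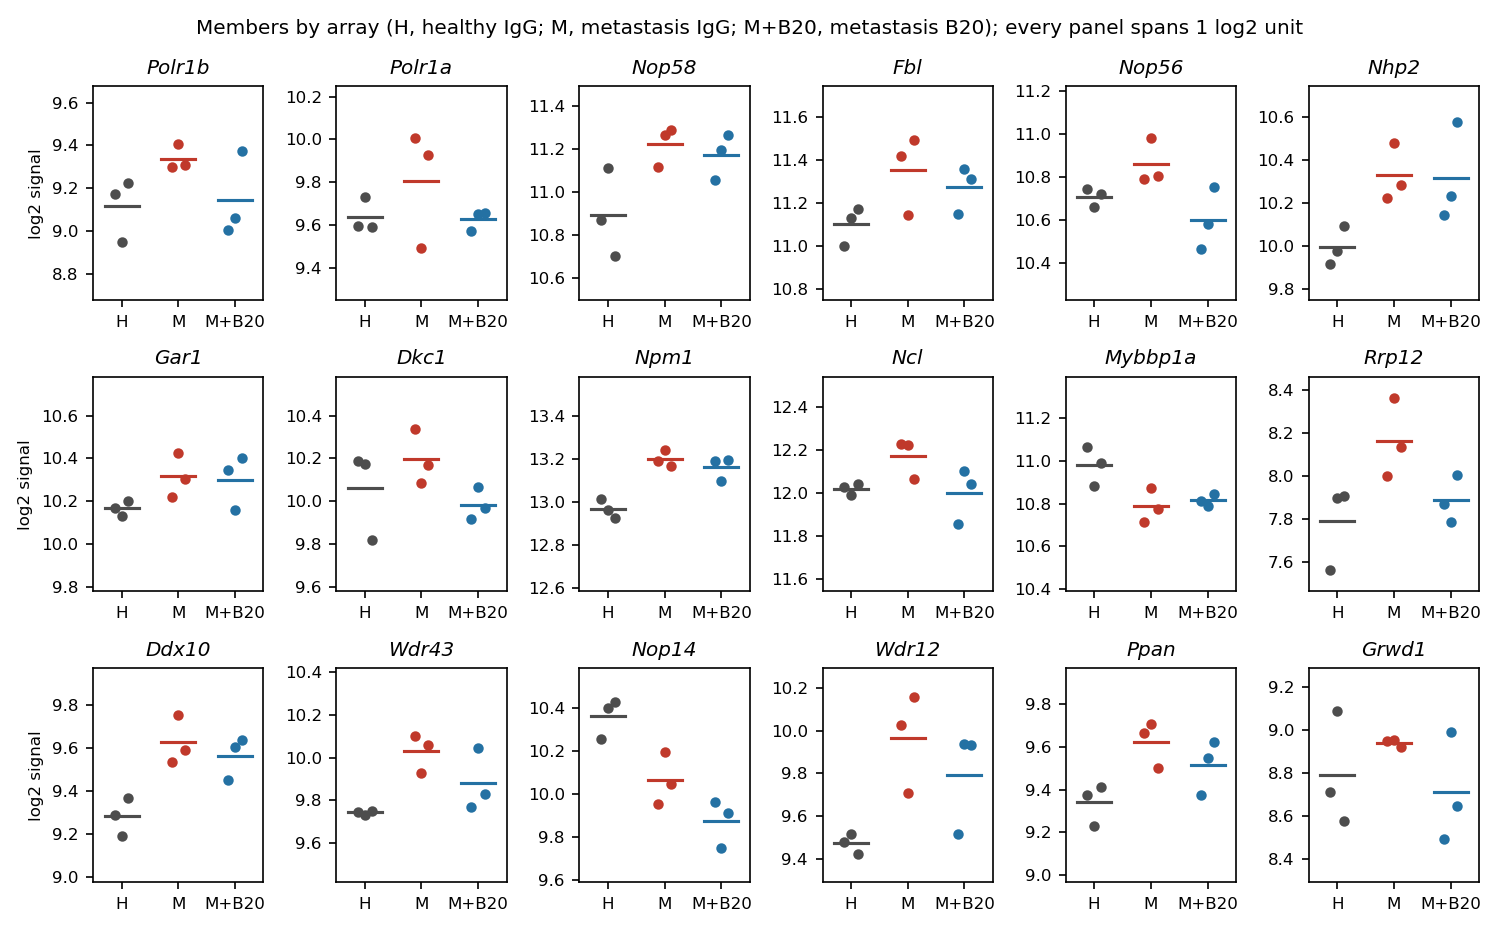
Log2 signal per array of the 18 ribosome biogenesis genes whose array values are given in the text, with healthy IgG (H), metastatic IgG (M) and metastatic B20 (M+B20) arrays as points and group means as bars. Every panel spans 1 log2 unit: Wdr12 separates healthy (9.43 to 9.52) from metastatic IgG arrays (9.71 to 10.16), and Nop14 and Mybbp1a are the 2 genes with all healthy arrays above all metastatic arrays.

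Among 6 nucleolar chaperones and organizers the median was 0.10, and no gene passed the test. Npm1, nucleophosmin, an abundant nucleolar chaperone, read 13.02, 12.96 and 12.93 in healthy, 13.19, 13.24 and 13.17 in metastatic IgG and 13.19, 13.10 and 13.20 in B20 arrays. All 6 metastatic arrays lay above all healthy arrays, by 0.23 ± 0.07 under IgG (adjusted p = 0.0957). Ncl, nucleolin, which binds the ribosomal RNA precursor, read 12.03, 11.99 and 12.04 in healthy, 12.23, 12.22 and 12.07 in metastatic IgG and 11.86, 12.10 and 12.04 in B20 arrays. Its metastatic IgG arrays were above the healthy ones by 0.15 ± 0.08 (adjusted p = 0.303), whereas its B20 arrays spread to both sides of them. Mybbp1a, a nucleolar protein that binds Myb, went the other way: it read 11.06, 10.88 and 10.99 in healthy, 10.72, 10.87 and 10.78 in metastatic IgG and 10.81, 10.79 and 10.84 in B20 arrays. All 6 metastatic arrays were below all healthy arrays, the closest only just (metastatic IgG minus healthy −0.19 ± 0.09, adjusted p = 0.234). The other probe set of Mybbp1a, with a mean signal of 10.80 against 10.86, did not share this. It was at 0.03 in metastatic IgG and −0.13 in B20 minus healthy arrays, and its arrays overlapped in both. The helicase Ddx21 (0.22), the GTPase nucleostemin Gnl3 (0.05) and the snoRNP chaperone Nolc1 (0.04) overlapped between the groups.

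Of 10 small subunit assembly factors 8 read higher and 2 lower in metastatic IgG arrays, with a median of 0.15. Ddx10, an RNA helicase, read 9.29, 9.19 and 9.37 in healthy, 9.54, 9.76 and 9.59 in metastatic IgG and 9.45, 9.61 and 9.64 in B20 arrays. Every metastatic array was above every healthy one, with 0.34 ± 0.09 under IgG (adjusted p = 0.0537). Wdr43, a component of the complex that first packs the nascent precursor, read 9.75, 9.73 and 9.75 in healthy, 10.10, 9.93 and 10.06 in metastatic IgG and 9.77, 10.04 and 9.83 in B20 arrays. The healthy arrays were nearly equal, and the metastatic ones all lay above them (0.28 ± 0.08 under IgG, adjusted p = 0.0648). Rrp12, a repeat protein needed for export of the subunits, was dim, at 7.56, 7.90 and 7.91 in healthy, 8.00, 8.36 and 8.13 in metastatic IgG and 7.87, 7.78 and 8.00 in B20 arrays, and only the IgG arrays cleared the healthy range in full (0.38 ± 0.13, adjusted p = 0.119).

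Nop14, a scaffold of the small subunit processome, was the clearest exception. It read 10.26, 10.40 and 10.43 in healthy, 9.95, 10.19 and 10.04 in metastatic IgG and 9.96, 9.75 and 9.91 in B20 arrays. The 6 metastatic arrays all lay below the 3 healthy arrays. Under IgG the difference of −0.30 ± 0.09 missed the threshold (adjusted p = 0.0932). Of the remaining factors of this subunit, Noc4l (0.33, adjusted p = 0.0739) was above the healthy arrays in every metastatic IgG array, and Ltv1 (0.19), Tsr1 (0.11), the nuclease Nob1 (0.03), the U3 particle protein Rrp9 (0.00) and Heatr1 (−0.04) overlapped.

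Of 12 measured large subunit factors 11 read higher in metastatic IgG arrays, with a median of 0.14. Wdr12, the gene that passed the test, read 9.48, 9.52 and 9.43 in healthy, 10.02, 9.71 and 10.16 in metastatic IgG and 9.52, 9.94 and 9.93 in B20 arrays. All metastatic IgG arrays were above all healthy arrays, and B20 replicate 1 lay at the top of the healthy range. The difference was 0.49 ± 0.12 (95% interval 0.22 to 0.76, limma, adjusted p = 0.0394). The call ended when any healthy array (adjusted p = 0.0978 to 0.119), metastatic IgG replicate 1 (0.118) or metastatic IgG replicate 3 (0.0876) was left out. It ended as well when the probe sets of a gene were averaged (0.17, adjusted p = 0.281), when the replicate number was fitted as a block (adjusted p = 0.0733) and when all 9 arrays were fitted together (adjusted p = 0.0503), where Ddx10 passed the test in its place (0.34, adjusted p = 0.0375).

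The partners of Wdr12 read in the same direction, Pes1 at 0.23 ± 0.11 and Bop1 at 0.17 ± 0.08, without passing the test. Ppan, a factor of the early large subunit, read 9.38, 9.23 and 9.41 in healthy, 9.66, 9.70 and 9.50 in metastatic IgG and 9.37, 9.55 and 9.62 in B20 arrays. Its metastatic IgG arrays did not overlap with the healthy ones (0.28 ± 0.09, adjusted p = 0.100). Grwd1, which binds the ribosomal protein Rpl3 as well as histones, read 8.71, 9.09 and 8.57 in healthy, 8.95, 8.95 and 8.92 in metastatic IgG and 8.49, 8.99 and 8.65 in B20 arrays, and all 3 groups overlapped (0.15 ± 0.13, adjusted p = 0.547). Nop16 was at 0.27 (adjusted p = 0.146), but at −0.04 with overlapping arrays in its other probe set. The rRNA methyltransferase Nop2 was at 0.13, Noc2l at 0.13, Nle1 at 0.07, Rrs1 at 0.05 and the helicase Ddx18 at 0.04. Noc3l, which works with Noc2l, was the one lower gene of this role (−0.25 ± 0.15, adjusted p = 0.354).

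The number of genes called depended on how dim genes were handled. Without the genes whose mean signal lay under the median over all genes (8.89), which removed 4 of the 36, 8 of 32 genes passed the test: Ddx10, Nhp2, Noc4l, Npm1, Ppan, Wdr12 and Wdr43 rose and Nop14 fell. The share over the 9097 genes kept was 18.3%, with 10.2% higher and 8.11% lower.

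**Figure D3:**
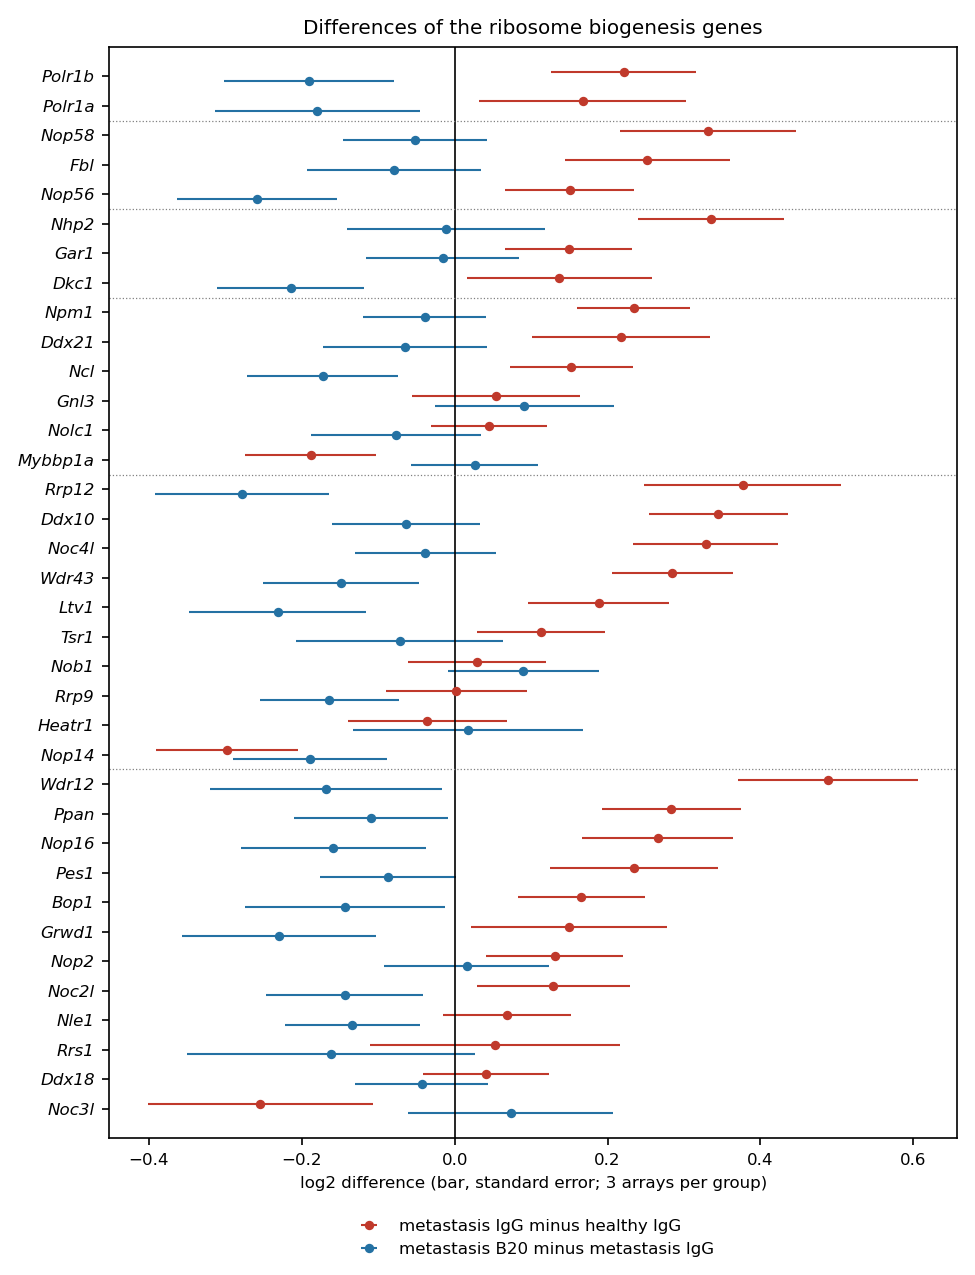
Log2 differences of the 36 genes, by role, for metastatic IgG minus healthy IgG (red) and metastatic B20 minus metastatic IgG (blue), with the standard error as bars (3 arrays per group; both share the metastatic IgG arrays). In red 32 genes lie above 0, with Wdr12 the highest (0.49) and Nop14 the lowest (−0.30), and in blue 30 lie below 0, none beyond −0.28.

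The second comparison asked which of these genes differ when VEGF is blocked in mice with metastases. Under B20 most of them read slightly lower than under control IgG, and none passed the test. No gene of the 18193 did so either (0% called by limma), with 8.04% of them at an unadjusted p under 0.05, and 2 of the 36 genes. The difference was below 0 in 30 of the 36 genes and above it in 6, where 48.3% of all genes were above 0. The median was −0.10, against −0.01 over all genes, and the range −0.28 to 0.09. All B20 arrays lay below all metastatic IgG arrays in 3 genes (8.33%; 6.91% of all genes) and above them in none (6.2% of all genes). Because this comparison and the first share the metastatic IgG arrays, a high value in these arrays gives opposite signs in both.

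The 2 genes with an unadjusted p under 0.05 were Rrp12 (−0.28 ± 0.11, unadjusted p = 0.0380, adjusted p = 0.596) and Nop56 (−0.26 ± 0.10, unadjusted p = 0.0361, adjusted p = 0.595). Nop56, whose array values are above, also had all B20 arrays under all IgG arrays, together with Dkc1 (−0.21 ± 0.10) and Nle1 (−0.13). In Nle1 the gap was small, with B20 arrays at 8.64, 8.66 and 8.57 and metastatic IgG arrays at 8.75, 8.66 and 8.87. The subunits of RNA polymerase I in the set were at −0.19 (Polr1b) and −0.18 (Polr1a), with intervals that reached above 0. Outside the set, Polr1d (0.12) and Znrd1 (0.04) read higher under B20 and Polr1c, Polr1e, Twistnb and Cd3eap lower. Nhp2 (−0.01, 95% interval −0.31 to 0.28), Gar1 (−0.02, −0.24 to 0.21), Npm1 (−0.04, −0.22 to 0.14) and Nop58 (−0.05, −0.27 to 0.16) had the smallest negative differences among the genes with array values given here.

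One B20 array carried much of this shift. The mean level of the 36 genes was −0.12 in B20 replicate 1, −0.00 in replicate 2 and 0.07 in replicate 3, so replicate 1 lay below all healthy arrays and replicate 3 just under the lowest metastatic IgG array. Replicate 1 was the lowest B20 array in each of the 6 roles, for instance at −0.16 in RNA polymerase I, −0.14 in small subunit and −0.12 in large subunit factors. Without it the median difference from metastatic IgG was −0.04, and without replicate 3 it was −0.14. In B20 replicates 1 to 3 the beta-actin 3′ minus 5′ value was 0.62, 0.556 and 0.526 and that of GAPDH 0.194, 0.103 and 0.0601, in the opposite order to the level of the genes. The markers of dividing cells did not follow this order (0.07, 0.25 and 0.01). They were below the metastatic IgG level in all B20 arrays, with a median difference of −0.56 over the 12 genes and no call. The part of RNA quality or of dividing cells in the level of the 36 genes was not tested.

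Set beside the healthy arrays, the B20 arrays left a mixed picture, with 20 genes above and 16 below 0 (47.8% of all genes were above) and a median of 0.04 against −0.01 over all genes. Nop14 passed the test, 1.40-fold lower than in healthy arrays (−0.49 ± 0.09, 95% interval −0.70 to −0.28, limma, adjusted p = 0.0176), and no gene rose. Over all genes 4.15% rose and 2.29% fell, 6.44% in either direction. The Nop14 call ended without healthy replicate 2 (adjusted p = 0.0702), healthy replicate 3 (0.0706) or B20 replicate 2 (0.0580) and with the replicate block (0.0511). All B20 arrays lay above all healthy arrays in 5 genes, Ddx10, Noc4l, Nhp2, Npm1 and Wdr43 (13.9%; 13.8% of all genes), and below them in Nop14 and Mybbp1a (13.1% of all genes). At an unadjusted p under 0.05 there were 7 genes, against 21.2% of all genes, namely Nop14 and, on the higher side, Ddx10 (0.28), Noc4l (0.29), Nhp2 (0.32), Wdr12 (0.32), Npm1 (0.19) and Nop58 (0.28). This comparison shares arrays with both others. It depended on B20 replicate 1 as well: without that array the median was 0.11 and Wdr12 rose (0.46, adjusted p = 0.0233), and without B20 replicate 3 the median was −0.01. Without healthy replicate 1 it was 0.02, and Nop14 kept its call (adjusted p = 0.0301). The other probe sets of Wdr12 read −0.29 and −0.03 against healthy arrays. In the first of them all B20 arrays lay below all healthy arrays (limma over all probe sets, unadjusted p = 0.0293, adjusted p = 0.186).

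The 74 probe sets gave a similar balance but did not always agree within a gene. Of them 57 were above 0 between metastatic IgG and healthy arrays, where 48.6% of all probe sets were (median 0.13), 22 had an unadjusted p under 0.05 (21.9% of all), and the metastatic IgG arrays lay above all healthy arrays in 27 (36.5%; 14.1% of all probe sets) and below in 5 (6.76%; 13.4%). With the fit over all 34945 probe sets 5 of them passed the test, all higher, where 4.43% of all probe sets rose, 2.98% fell and 7.41% changed in either direction. They were those of Wdr12 (0.49) and one each of Ddx21 (0.53, adjusted p = 0.0215), Heatr1 (0.55, adjusted p = 0.0355), Ncl (0.36, adjusted p = 0.0440) and Noc4l (0.41, adjusted p = 0.0248). The last 4 are not the probe sets with the highest mean of their genes. With any 1 array left out 0 to 2 of the 74 passed the test (1 without healthy replicate 1). The called Ddx21 probe set read 10.12, 9.88 and 9.82 in healthy, 10.49, 10.56 and 10.37 in metastatic IgG and 10.17, 10.17 and 10.31 in B20 arrays, so the groups of the first comparison did not overlap.

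Of the 24 genes with more than 1 probe set, all probe sets had one sign in 13 genes. Fbl (0.25 and 0.24) and Nhp2 (0.34 and 0.30) had near-equal values. Wdr12, in contrast, had 0.49 in the probe set used and 0.07 and −0.06 in the other two, of which the last was close to the bottom of the signal scale (5.62 to 5.90 over the 9 arrays). Heatr1 had −0.04, −0.35 and 0.55, Nolc1 0.04, −0.35 and 0.32, and the 5 probe sets of Ncl ranged from −0.40 to 0.36. Under B20 against metastatic IgG, 61 of 74 probe sets were below 0 (median −0.11), where 48.1% of all were above, and 15 of 24 genes had 1 sign. All B20 arrays lay below in 11 probe sets (14.9%; 6.58% of all) and above in none (6.13% of all), and 9 had an unadjusted p under 0.05, all lower (7.63% of all probe sets in either direction), led by Heatr1 (−0.43, adjusted p = 0.502). None passed the test. Between B20 and healthy arrays 38 of 74 were above 0 (46.8% of all) and 15 had an unadjusted p under 0.05 (20.2% of all). Of these 3 fell and none rose, where 2.09% of all fell, 3.32% rose and 5.41% did either, that of Nop14 and one each of Ncl (−0.63, adjusted p = 0.0447) and Nolc1 (−0.44, adjusted p = 0.0468), while the most intense probe sets of Ncl and Nolc1 were at −0.02 and −0.03.

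**Figure D4:**
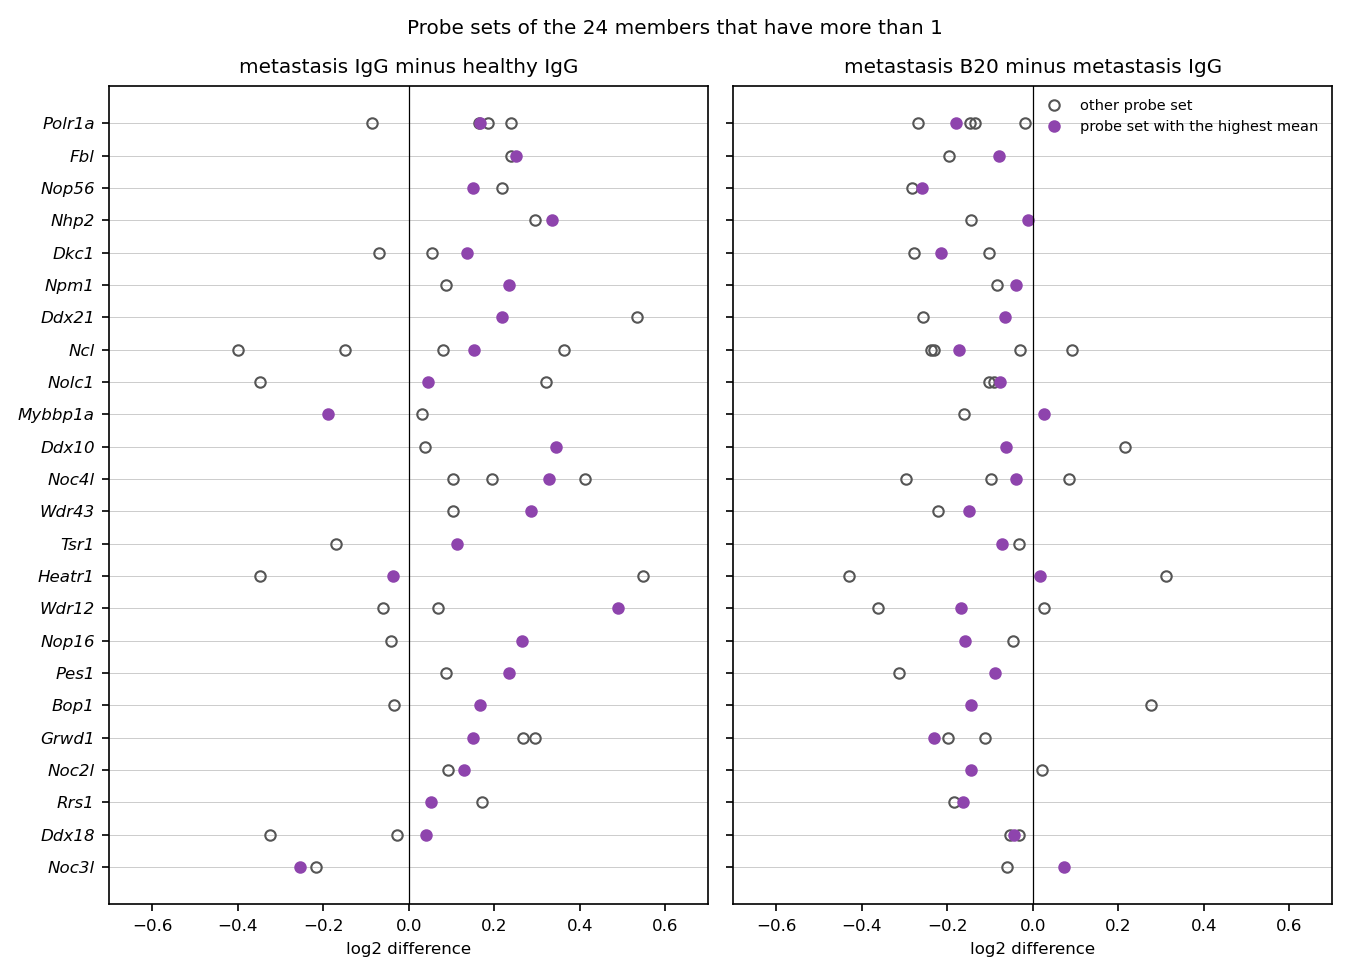
Log2 differences of every probe set of the 24 genes with more than 1 probe set, for metastatic IgG minus healthy IgG (left) and metastatic B20 minus metastatic IgG (right), the one with the highest mean filled. On the left the probe sets of Fbl and Nhp2 nearly coincide, while those of Wdr12 (0.49, 0.07 and −0.06), Heatr1, Ncl and Nolc1 spread over both sides of 0.

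The rest of the pathway was followed in lists written beside the 36 genes. Of 144 other measured assembly and processing genes, 5 rose and 1 fell in metastatic IgG against healthy arrays, where 5.55% of all genes rose and 3.46% fell. The median of the 144 genes was 0.04. With any 1 array left out 1 to 4 of the 144 passed the test in place of 6 (3 without healthy replicate 1). Among 49 further small subunit factors Utp23 rose (0.37 ± 0.09, adjusted p = 0.0463) and Bysl, bystin, fell (−0.37 ± 0.09, adjusted p = 0.0389). Among 49 further large subunit factors Ccdc86 (0.48 ± 0.08, adjusted p = 0.0114), Urb2 (0.44 ± 0.08, adjusted p = 0.0159) and Rrp15 (0.37 ± 0.09, adjusted p = 0.0472) rose. All 3 probe sets of Ccdc86 were at 0.36 to 0.52. Of 15 genes of the RNA exosome, the nuclease complex that trims the precursors, Exosc9 rose (0.45 ± 0.10, adjusted p = 0.0305). None of 14 genes of the RNA polymerase I machinery passed the test (the smallest adjusted p was 0.246, for Polr1c at 0.22 ± 0.10), nor any of 17 late maturation and export genes (the smallest was 0.0723, for Sbds at −0.29 ± 0.08).

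Genes of the cytosolic ribosomal proteins, the parts of the finished ribosome, read slightly higher in both metastatic groups than in healthy lungs. Of 79 such genes 44 were measured alone, each given by its probe set with the highest mean. Other probe sets of some genes differed from it. Between metastatic IgG and healthy arrays Rpl27a had 5.03 beside 0.03 in the probe set used, and Rpl7 had 1.52 beside 0.14. Rpl41 had −0.28 to −0.12 beside 0.04. In metastatic IgG against healthy arrays 42 of 44 were above 0 (49.8% of all genes), with a median of 0.16, and all arrays were above in 29 (65.9%; 15.4% of all genes). Rpl12 (0.51 ± 0.08, adjusted p = 0.00615) and Fau (0.38 ± 0.08, adjusted p = 0.0186) rose, where 5.55% of all genes did. Under B20 against metastatic IgG their median was 0.00, with 23 above and 21 below 0, and none passed the test. Against healthy arrays the B20 arrays were above in 33 of 44 (75%; 13.8% of all genes), with a median of 0.17, and the same 2 genes rose (Fau 0.39, adjusted p = 0.0284, and Rpl12 0.38, adjusted p = 0.0314), where 4.15% of all genes did. With any 1 array left out 0 to 1 of the 44 passed the test in that comparison (0 without healthy replicate 1). The mean level of the 44 genes in B20 replicates 1 to 3 was 0.04, 0.06 and 0.05, so the low level of B20 replicate 1 in the 36 biogenesis genes was not seen in the ribosomal protein genes. As in the 36 genes, B20 replicate 1 was the lowest B20 array in each list of other assembly genes. Its mean level in them ran from −0.09 (further small subunit factors) to −0.03 (late maturation and export genes). The difference between the lists was not tested.

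**Figure D5:**
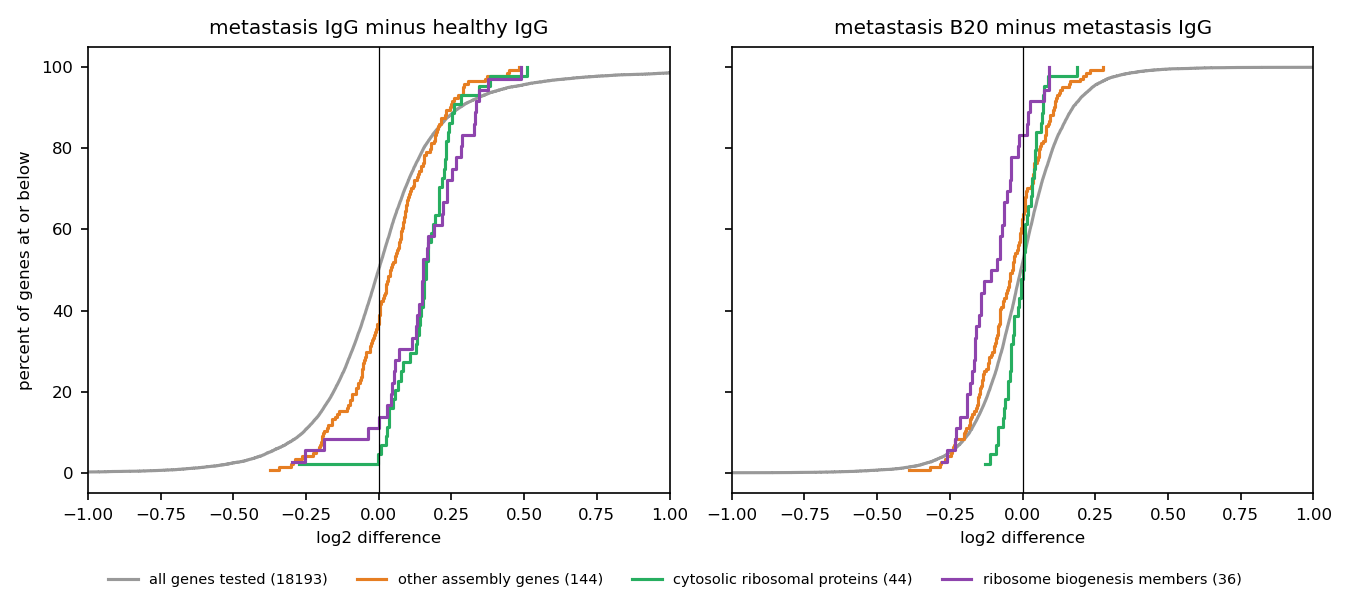
Percent of genes at or below each log2 difference (axis cut at −1 and 1) for all 18193 genes, 144 other assembly genes, 44 cytosolic ribosomal protein genes and the 36 ribosome biogenesis genes. On the left, metastatic IgG minus healthy IgG, the curves of the 36 genes (median 0.15) and the ribosomal protein genes (0.16) lie to the right of all genes over most of their range, and on the right, metastatic B20 minus metastatic IgG, the 36 genes lie to the left (median −0.10) and the ribosomal protein genes at 0.

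Under B20 against metastatic IgG no gene of the other lists passed the test either, and the 144 assembly genes had a median of −0.03. The smallest adjusted p of each list belonged to Exosc6 (−0.28, 0.464), Surf6 (−0.24, 0.467), Rcl1 (−0.39, 0.507), Cd3eap of RNA polymerase I (−0.32, 0.522), Pa2g4 (−0.20, 0.629), Eif6 (−0.14, 0.747) and Rpl12 (−0.13, 0.772), all of them lower under B20. Against healthy arrays B20 arrays had higher Riok1, a kinase of the late small subunit (0.34, adjusted p = 0.0418), Ccdc86 (0.44, adjusted p = 0.0247), Urb2 (0.37, adjusted p = 0.0330) and Exosc9 (0.45, adjusted p = 0.0303), and lower Rbm28 (−0.40, adjusted p = 0.0395), where 4.15% of all genes rose and 2.29% fell. The other probe sets of Riok1 were at −0.02 to 0.10 there and that of Rbm28 at −0.01, while all those of Ccdc86 were at 0.41 to 0.49. With any 1 array left out 0 to 2 of the 144 passed the test in place of 5 (1 without healthy replicate 1). None passed the test there in the RNA polymerase I machinery (smallest adjusted p = 0.197, Cd3eap at −0.22) or among late maturation and export genes (0.154, Pih1d1 at 0.26). Of 14 genes that govern growth or respond to nucleolar stress, 4 rose and 1 fell in metastatic IgG against healthy arrays, where 5.55% of all genes rose and 3.46% fell. By size these were led by Mycn (4.30) and Myc (1.96), with Hexim1, an inhibitor of transcription elongation, as the gene that fell (−0.42 ± 0.09, adjusted p = 0.0265). Mycn differed between its probe sets (0.25, 1.06 and 4.30). Between B20 and metastatic IgG arrays Mycn differed by 0.01 and Myc by 0.13, and no gene of this list passed the test. Against healthy arrays 3 genes of this list rose under B20, where 4.15% of all genes did. They were Mycn (4.31), Myc (2.09) and Eif4ebp1, a repressor of translation (0.49, adjusted p = 0.0303). The other probe sets of Eif4ebp1 were at 0.62 and −0.02 there.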

How the data were processed

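The deposited values were log2 signals for 45101 probe sets in 9 arrays, which the authors had made by robust multiarray average (RMA) normalization of the scanned arrays in Chipster, and they were used unchanged. Probe sets without a gene name (9211), with several genes (932) and controls (64, in part unnamed) were left out, and each of 18193 genes was read by its probe set with the highest mean. For each comparison limma (version 3.58.1, run in R 4.3.3) was fitted to the 6 arrays concerned by lmFit and eBayes, and p values were adjusted over all genes by Benjamini-Hochberg. The genes, the lists and the rule were chosen with earlier results of these data known. Array values are given for genes that passed a test and, in each role, for the 2 genes with the smallest p in the first and the 1 in the second comparison; of each other list up to 3 called genes, or the one of smallest p, are named. Array values of Nle1, Ddx21, Pecam1 and Cdh5 were added after they were seen. Scripts were tested on simulated data. Deviations of same-numbered arrays from their group means correlated at −0.0757 to 0.0138, and no array correlated best with its own number. This gave no sign that numbers pair arrays, but 3 arrays per group cannot exclude it. That 3 mice per group were used comes from the study. The number of arrays limits the precision.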

Additional observations from a re-analysis of the deposited data

How the results depend on the processing

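In single-gene results, 741 of 755 alternative values kept their direction. In B20 minus metastatic IgG arrays the direction turned for Mybbp1a (−0.0668) and Ddx10 (0.0764) with averaged probe sets, Nhp2 with arrays centred on their median (0.0042), and Nhp2 (0.0449) and Gar1 (0.0208) with array weights. Leaving out 1 array at a time gave −0.0105 to 0.0689 for Mybbp1a, −0.11 to 0.00088 for Ddx10, −0.14 to 0.0768 for Nhp2, −0.0656 to 0.0559 for Gar1 and −0.11 to 0.0067 for Nop58. In B20 minus healthy arrays Wdr12 was at −0.0016 with averaged probe sets.

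For metastatic IgG against healthy arrays, the count of 1 called gene of the 36 changed with the setting. It became 2 with averaged probe sets, with array weights or without probe sets marked as shared between transcripts. No share over all genes was counted for these settings. The count was 3 with a variance trend (where 12% of all genes were called) and 5 with each probe set fitted (7.41% of all probe sets). Without dim genes it was 8 (18.3% of the 9097 genes kept). At the study's thresholds (log2 0.75, adjusted p 0.25) it was 0, and with 1 array left out 0 to 1. The 6 other assembly genes became 10 with all 9 arrays in 1 fit, 11 with a trend, 14 without dim genes and 0 at the study's thresholds (1 to 4 with 1 array left out), the 2 ribosomal protein genes 6 without dim genes or with averaged probe sets, 17 with a trend, 1 without shared probe sets and 0 at the study's thresholds (1 to 2), and the 5 probe sets 0 to 2. Medians were 0.15 to 0.18 with 1 array left out. For B20 against metastatic IgG, averaged probe sets left 6 genes without overlap in place of 3, all counts of calls were 0 under each alternative (0 to 0), and medians were −0.14 to −0.04. For B20 against healthy arrays, 1 called gene became 2 without dim genes (14.9% of the 9097 genes kept) or with a trend (10.1% of all genes). The count became 3 with each probe set fitted (5.41% of all probe sets) and 0 at the study's thresholds (0 to 2). The 5 other assembly genes became 12 without dim genes, 9 with a trend and 0 at the study's thresholds (0 to 2), the 2 ribosomal protein genes 9, 14 and 0 there, 8 with averaged probe sets and 1 without shared probe sets (0 to 1), and the 3 probe sets 1 with array weights (0 to 2). The median was −0.0136 to 0.107.

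The replicate number was also fitted as a block, although no sign of pairing by it was seen. Against healthy arrays, metastatic IgG then had 0 of the 36 genes, 3 other assembly genes, 1 ribosomal protein gene and 1 probe set called. B20 against healthy arrays had 0 of each. With 1 array left out, 2 arrays stand for a group. The causes of these changes were not tested, beyond the smaller number of genes or arrays that an alternative uses.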
